A study of Mus musculus with 7 samples.

Results

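Transcripts of the cytosolic ribosomal proteins were measured in erythroblasts of Sod2-/- and Sod2+/+ chimeric mice. The genes were taken by symbol, as those named Rpsa, Rplp0, Rplp1 or Rplp2 and those whose symbol begins with Rpl or Rps and a digit, without the Rps6k kinases and without pseudogenes named -ps. Each gene was read from the brightest of the probe sets matched to it alone by platform annotation. This gave 50 genes from 106 probe sets, of 18193 genes measured in this way. For 15 of the 50 that probe set carries an _s_at or _x_at suffix, which marks probes that may match other sequences as well. Rps27l, Rpl22, Rpl37 and Rpl37a are among these 15. Of the 50, 21 encode proteins of the small subunit and 22 proteins of the large subunit. A further 5 are paralogs of a ribosomal protein (Rps27l, Rpl22l1, Rpl39l, Rpl3l and Rps4l). Rpl7l1, a nucleolar relative of Rpl7, and Rps19bp1, a protein that binds Rps19, came in by name only. The standard set counts 77 ribosomal proteins under these symbols, so 34 of them had no probe set of their own, and 27 of those 34 share probe sets with other genes.

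Both groups were made by transplanting fetal liver cells of littermates from heterozygous B6-Sod2tm1Cje matings, taken at E13.5 to E16.5, into lethally irradiated (1050 rad) Ly5.1 C57BL/6 hosts aged 11 to 15 weeks. The Sod2-/- donors lack manganese superoxide dismutase, the mitochondrial enzyme that removes superoxide, whereas the Sod2+/+ littermates carry no deletion. Hosts of both groups were wild type for Sod2 and marrow cells that survived irradiation were not sorted out by the stated gate, which took TER-119+ CD71+ cells. RNA of sorted marrow cells was hybridized to Affymetrix mouse expression arrays, of which 4 Sod2+/+ (replicates 17, 29, 33 and 37) and 3 Sod2-/- (replicates 31, 35 and 39) were analysed. The question was how loss of Sod2 changes the transcripts of erythroid precursors, and the ribosomal proteins were read as 1 group within it. All values are deposited log2 values, so a difference of 1 is a factor of 2, and every adjusted p is from limma over all probe sets (threshold 0.05) unless another test is named. Nothing in the labels says which arrays came from separate animals, and the p-values therefore reflect the spread among arrays alone.

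The cytosolic ribosome is built from a small subunit, which reads the messenger RNA, and a large subunit, which joins amino acids. Its proteins are made in the cytosol, imported into the nucleolus, assembled on ribosomal RNA and exported. Ribosomal protein messages are among the most abundant of a cell, and in vertebrates most begin with a run of pyrimidines, the 5′ terminal oligopyrimidine or TOP motif, through which mTOR and the RNA-binding protein LARP1 adjust their translation and stability together. Erythroid precursors depend on ribosomes to fill the cell with globin, and loss of 1 copy of a ribosomal protein gene causes Diamond-Blackfan anemia in humans, while RPS14 lies in the region lost in the 5q- syndrome.

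The start regions are shown for 6 genes chosen by their results. These are the 3 that passed the test, the 2 with the largest differences that did not pass, and Rpl37a, which had the highest difference. The sequences entered no test. Each runs 5′ to 3′ over 60 bases before the RefSeq start and 25 bases from it (GRCm38.p6, first start listed for the gene), with every run of at least 8 pyrimidines (C or T) in capitals.
Rps18 (chr17:33955641-33955725, minus strand): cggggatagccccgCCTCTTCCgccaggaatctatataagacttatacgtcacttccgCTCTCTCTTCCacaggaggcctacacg
Rps27l (chr9:66946026-66946110, plus strand): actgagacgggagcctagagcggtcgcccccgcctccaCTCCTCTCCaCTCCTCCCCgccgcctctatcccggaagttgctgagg
Rpl22 (chr4:152325666-152325750, plus strand): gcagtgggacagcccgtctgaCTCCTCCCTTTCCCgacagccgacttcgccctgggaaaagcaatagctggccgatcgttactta
Rpl37 (chr15:5116553-5116637, plus strand): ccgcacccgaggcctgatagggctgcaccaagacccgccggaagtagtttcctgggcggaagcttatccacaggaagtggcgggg
Rps6 (chr4:86857343-86857427, minus strand): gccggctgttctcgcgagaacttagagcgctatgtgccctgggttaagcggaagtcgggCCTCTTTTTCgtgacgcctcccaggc
Rpl37a (chr1:72711200-72711284, plus strand): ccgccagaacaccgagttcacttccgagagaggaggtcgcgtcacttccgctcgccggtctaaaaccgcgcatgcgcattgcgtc

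In Rps18 a run of 11 pyrimidines crosses the annotated start, and in Rps6 a run of 10 does so. The runs of Rps27l, each of at most 9, and of Rpl22 (14) lie before the first start listed, and both genes have 2 starts listed. The windows of Rpl37 and Rpl37a hold no run of 8. RefSeq promoter entries were found for 44 of the 50 genes. A run of at least 8 pyrimidines lay in this window of 26 of the 44 (59.1%), against 8727 of 27025 genes with an entry (32.3%) and 22 of 69 mitochondrial ribosomal protein genes (31.9%). The letters CGGAAG, the core that ETS factors such as GABP bind, stood on either strand of the 300-base entry (250 bases before the start) in 31 of the 44 (70.5%), against 17.2% of all genes and 38 of the 69 mitochondrial ribosomal protein genes (55.1%). A TATAAA on the sense strand of the shorter window was present in 3 of the 44 (6.82%) and in 3.58% of all genes. These matches describe letters and not binding. A pyrimidine run was counted anywhere in the window, also wholly before the start. The shares with a run are therefore not shares of messages with the TOP motif. Median log2 differences were -0.25 for the 26 genes with a pyrimidine run and -0.19 for the 18 without one, and -0.22 for the 31 with CGGAAG and -0.30 for the 13 without it.

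Facts of the whole series bear on what follows. The 4 probe sets of Sod2 had log2 differences between -0.10 and 0.09 with overlapping groups (adjusted p of at least 0.54), and they are no check of the labels, since the study's supplement states that the shortened message is still made and that some of these probe sets lie outside the deleted part, without saying which. Erythroid genes were bright in every array: the erythroid factor Klf1 averaged 11.62 ± 0.17 in Sod2+/+ arrays (SD, n = 4) and 11.75 ± 0.13 in Sod2-/- arrays (SD, n = 3). Tfrc, which encodes CD71, averaged 12.31 and 12.51, and the globin gene Hbb-b2 10.94 and 10.86. Of 18 erythroblast markers 15 were above 0 and none passed (median 0.13). Averaged over the list, their deviations from the Sod2+/+ mean were 0.17, 0.18 and 0.01 in Sod2-/- replicates 31, 35 and 39. The progenitor receptor Kit was near background, at 4.61 and 4.71. Of 12 markers of late erythroid stages 10 were above 0 and 2 rose, Tspo2 and Fbxo30, and of 6 early ones 1 fell, Myb (by 1.24, adjusted p = 0.0303), with summed linear levels of 595 to 838 in Sod2+/+ and 328 to 475 in Sod2-/- arrays for the early list. Of 16 B cell markers 7 fell, among them Cd79a by 1.78 (adjusted p = 0.00284), and the summed linear level of the list was 1230 to 1796 in Sod2+/+ and 733 to 980 in Sod2-/- arrays. All 14 neutrophil markers were below 0 with none past the test (median -0.87), with summed levels of 35360 to 44340 in Sod2+/+ and 16840 to 35170 in Sod2-/-, while the 12 macrophage markers summed to 528 to 612 in Sod2+/+, 446 and 545 in Sod2-/- replicates 35 and 31, and 1516 in replicate 39. No marker can be called at 0 on an array. The part of these cells in the ribosomal protein values was not tested. In bulk RNA fewer cells of a type and less RNA per cell cannot be told apart. The sort gate pooled erythroid stages, and the study reports by flow cytometry a larger share of basophilic erythroblasts in Sod2-/- marrow. A change in this mix was not tested and cannot be told apart from a change within cells. Arrays were run on 2 fluidics stations that each held both genotypes, and Sod2-/- replicates 31 and 39 were on another chip lot than the other 5 arrays.

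Most ribosomal protein transcripts had slightly lower values in Sod2-/- erythroblasts, and few of them passed the test. Of the 50 genes 46 had a log2 difference below 0 (Sod2-/- minus Sod2+/+) and 4 above, with a median of -0.23, equal to a value 14.8% lower, and a range from -0.79 to 0.21. By limma 3 fell (Rps27l, Rps18 and Rpl22) and none rose. The 3 calls stand against 813 of all 18193 genes called lower (4.47%) and 75 called higher (0.412%), so the share called, 3 of 50, was near that of all genes. The 46 genes below 0 stand beside 45.8% of all genes below 0, whose median was 0.02. At an unadjusted p under 0.05, 25 of the 50 were lower and none higher, against 18.4% and 6.68% of all genes. In 19 of the 50 every Sod2-/- array lay below every Sod2+/+ array, against 14.8% of all genes, and in none did they all lie above, against 7.19%. Within fluidics station 1 (2 Sod2+/+ arrays and 1 Sod2-/-) the median of the 50 was -0.32 and within station 2 (2 of each) it was -0.15, with no gene past the test in either. Only 1 Sod2-/- array, replicate 35, shared the chip lot of the Sod2+/+ arrays, so a comparison within that lot rests on this array alone. It was the array with the lowest mean deviation of the 50 genes from the Sod2+/+ mean. The comparison within that lot gave a median of -0.33, and the lone array is assumed to vary like the others. By the methods' t-test none of the 50 passed after adjustment, beside 2 of all 18193 genes lower (0.011%) and 0 higher.

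**Figure D1:**
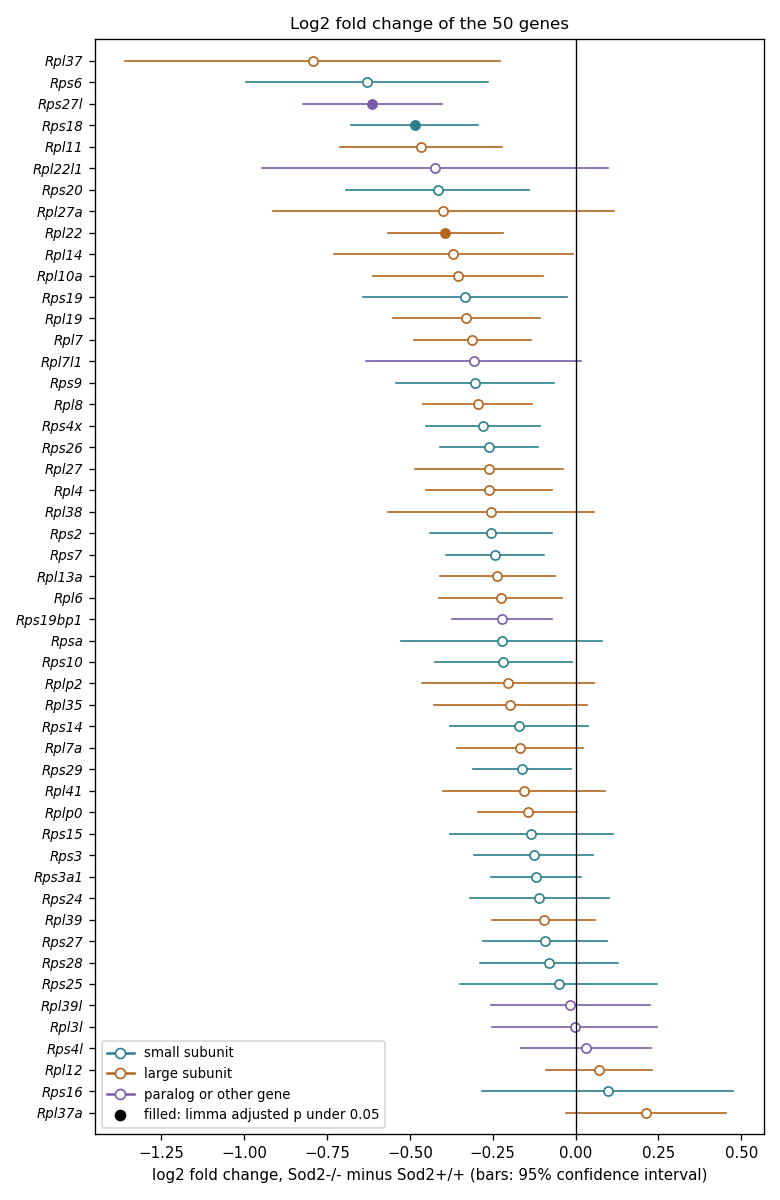
Log2 fold change (Sod2-/- minus Sod2+/+) of each of the 50 genes with its 95% confidence interval from limma, coloured by subunit and filled where the adjusted p is under 0.05. The points run from -0.79 (Rpl37) to 0.21 (Rpl37a), and 3 of them are filled.

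Rps27l had the smallest adjusted p. This gene encodes a close paralog of the small subunit protein Rps27 and is known as a target of p53. Its log2 values were 9.65, 9.90, 9.59 and 9.87 in Sod2+/+ replicates 17, 29, 33 and 37 and 9.09, 9.14 and 9.18 in Sod2-/- replicates 31, 35 and 39. The groups did not overlap, and the 3 Sod2-/- arrays lay close together (SD 0.04). The gene fell by 0.61 ± 0.09 (SE; 1.53-fold, adjusted p = 0.0208), and its other probe sets fell by 0.62 and 0.70 (adjusted p = 0.0329 and 0.0133). Left out in turn, 5 of the 7 arrays kept the call; without Sod2+/+ replicate 37 the adjusted p was 0.0543 and without Sod2-/- replicate 35 it was 0.0736. Its partner Rps27 itself was read by a dim probe set, with 5.00 ± 0.13 over the Sod2+/+ arrays (SD, n = 4) and 4.90 ± 0.04 over the Sod2-/- arrays (SD, n = 3), a difference of -0.09 (adjusted p = 0.594).

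Rps18, a protein of the head of the small subunit, had values of 12.20, 12.13, 11.98 and 12.11 in the Sod2+/+ arrays and 11.54, 11.55 and 11.76 in the Sod2-/- arrays. Again the groups did not overlap, and Sod2-/- replicate 39 was the nearest to the Sod2+/+ arrays. The gene fell by 0.49 ± 0.08 (SE; 1.40-fold, adjusted p = 0.0271). Of its other bright probe sets one fell by 0.39 (adjusted p = 0.0491) and one differed by -0.53 (adjusted p = 0.0531), while 3 dim ones, with means of 5.07, 4.05 and 4.04, differed by 0.18, -0.04 and -0.03. Rps18 lies on chromosome 17, which also carries Sod2 and 6 others of the 50 genes, and the median of these 7 was -0.26. Whether linkage to the targeted Sod2 gene played a part was not tested. In a comparison of Sod2-/- with Sod2+/+ donors it cannot be told apart from loss of Sod2. Its call was lost (adjusted p from 0.0544 to 0.0977) when any 1 of Sod2+/+ replicates 17, 29 and 37 or Sod2-/- replicates 31 and 35 was left out.

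Rpl22, a large subunit protein known for its part in T cell development, gave 11.66, 11.65, 11.54 and 11.70 in the Sod2+/+ and 11.22, 11.15 and 11.36 in the Sod2-/- arrays. It fell by 0.39 ± 0.08 (SE; 1.31-fold, adjusted p = 0.0358), with no overlap. A second probe set with a mean of 9.15 fell by 0.46 (adjusted p = 0.0431) and the last, near background, differed by -0.21 (adjusted p = 0.149). Without any 1 of the arrays that mattered for Rps18 its adjusted p was 0.0696 to 0.125. Its paralog Rpl22l1 differed by a similar amount, -0.42, but with wide spread: 9.64, 9.66, 9.35 and 9.66 in Sod2+/+ and 9.08, 8.61 and 9.76 in Sod2-/-, so that replicate 39 was the highest of all 7 arrays (adjusted p = 0.359).

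**Figure D2:**
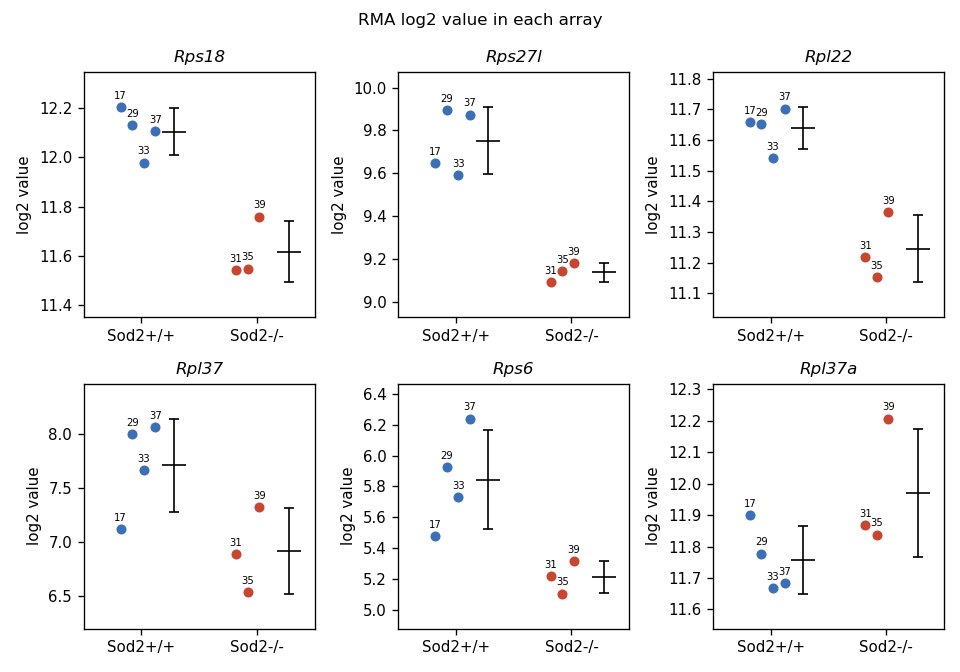
RMA log2 value of 6 ribosomal protein genes in each array, labelled by replicate number, with the mean and SD of the 4 Sod2+/+ (blue) and 3 Sod2-/- (red) arrays; each panel has its own axis, which does not start at 0. The groups of Rps18, Rps27l, Rpl22 and Rps6 do not overlap, those of Rpl37 and Rpl37a do.

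The differences were not equal in the 3 Sod2-/- arrays. For each gene the value was set against the mean of the Sod2+/+ arrays. The mean of these deviations over the 50 genes was -0.28 in replicate 31, -0.34 in replicate 35 and -0.09 in replicate 39. In the Sod2+/+ arrays it was 0.02, 0.06, -0.09 and 0.01 in replicates 17, 29, 33 and 37. Replicate 39 of the Sod2-/- group thus stood level with Sod2+/+ replicate 33 in this mean deviation. Counted by gene, replicate 31 lay below all 4 Sod2+/+ arrays for 42 of the 50 genes, replicate 35 for 43 and replicate 39 for 20. Among the Sod2+/+ arrays, replicate 33 was below the other 3 for 34 genes. Without replicate 39 the median of the 50 was -0.30 and 5 genes fell, and without replicate 35 it was -0.16 and none fell. Sod2-/- replicate 39 was also the array with the high macrophage markers.

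**Figure D3:**
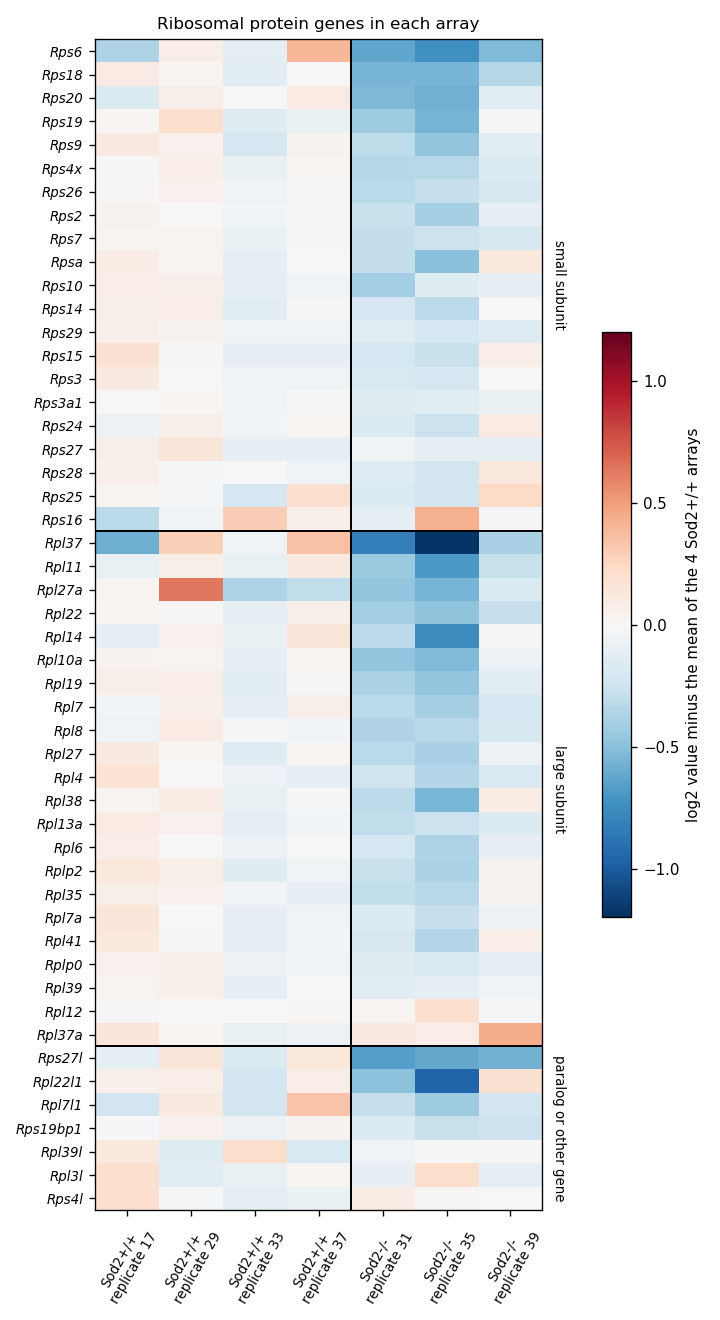
Log2 value of each gene minus the mean of the 4 Sod2+/+ arrays, for 50 genes (rows, grouped by subunit and ordered by log2 fold change) in 7 arrays (columns). Blue fills most rows of Sod2-/- replicates 31 and 35, whose mean deviations are -0.28 and -0.34, and is paler in replicate 39, with -0.09.

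Summed on the linear scale, the 50 probe sets gave 144700, 143100, 131200 and 137300 in Sod2+/+ replicates 17, 29, 33 and 37 and 115600, 110800 and 133100 in Sod2-/- replicates 31, 35 and 39. Here too replicate 39 lay within the Sod2+/+ range and the other 2 below it. The log2 ratio of 3′ to 5′ probe sets of Gapdh, a measure of RNA integrity, was 1.24 to 1.45 in Sod2+/+ and 1.10 to 1.21 in Sod2-/- arrays, and that of Actb 0.67 to 0.87 and 0.69 to 0.78. Its part in the result was not tested.

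Small subunit genes differed by a median of -0.22 (20 of 21 below 0, 1 called lower) and large subunit genes by -0.26 (20 of 22, 1 called lower). In the small subunit the largest difference was that of Rps6, the substrate of S6 kinase downstream of mTOR. It was read at 5.48, 5.93, 5.73 and 6.24 in Sod2+/+ and 5.22, 5.11 and 5.32 in Sod2-/- arrays, without overlap but with a wide Sod2+/+ spread. The difference was -0.63 ± 0.16 (SE) and did not pass (adjusted p = 0.0717), and a second probe set near background, at 3.90, differed by 0.09. Rps20 gave 11.52, 11.77, 11.69 and 11.79 in Sod2+/+ against 11.15, 11.12 and 11.57 in Sod2-/-, a difference of -0.42 (adjusted p = 0.101) in which replicate 39 reached the lowest Sod2+/+ array.

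Several bright small subunit genes were separated by genotype with small differences that did not pass. Rps26 stood at 12.16 to 12.27 in Sod2+/+ and 11.89, 11.94 and 12.02 in Sod2-/- arrays, a difference of -0.26 (adjusted p = 0.0686). For Rps7 the values were 12.15 to 12.27 and 11.94, 11.98 and 12.04, with a difference of -0.24 (adjusted p = 0.0821). Rps4x, the X-linked copy of this protein, read 11.69 to 11.86 and 11.44, 11.45 and 11.62 (difference -0.28, adjusted p = 0.0853). Rps29 was the brightest of the 50 probe sets, at 12.98 to 13.09 in Sod2+/+ and 12.82 to 12.91 in Sod2-/- arrays (difference -0.16, adjusted p = 0.215). Rps3a1 had one of the tightest groups, 12.13 ± 0.03 (SD, n = 4) against 12.01 ± 0.03 (SD, n = 3), yet a difference of only -0.12 (adjusted p = 0.322). Rps2, which was also separated, differed by -0.26 (adjusted p = 0.124).

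Other small subunit genes overlapped between genotypes. Rps9 differed by -0.30 (adjusted p = 0.152), Rps10 by -0.22, Rpsa, which is also described as a laminin receptor, by -0.22, Rps15 by -0.13 and Rps3 by -0.13. For Rpsa the Sod2-/- arrays were far apart, at 11.87, 11.65 and 12.27, with replicate 39 above all Sod2+/+ arrays (12.04 to 12.24). Rps25, at 5.94 in Sod2+/+, differed by -0.05 (95% confidence interval -0.35 to 0.25). Rps16 was the 1 small subunit gene above 0, at 0.10 (95% confidence interval -0.28 to 0.48), and was read near background, at 4.68 in Sod2+/+ arrays.

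In the large subunit Rpl37 had the largest difference of all 50 genes. It was read at 7.12, 8.00, 7.67 and 8.07 in Sod2+/+ and 6.89, 6.54 and 7.33 in Sod2-/- arrays. Sod2-/- replicate 39 lay above Sod2+/+ replicate 17, and the difference of -0.79 ± 0.25 (SE) did not pass (adjusted p = 0.122). Rpl11, which with Rpl5 and 5S ribosomal RNA forms the particle that can bind Mdm2, was separated: 10.03, 10.20, 10.03 and 10.23 against 9.68, 9.44 and 9.86. Its difference was -0.47 ± 0.11 (SE) with an adjusted p of 0.0553, just over the threshold. Rpl8, at 11.75 to 11.89 and 11.43 to 11.59, differed by -0.30 (adjusted p = 0.0651), and Rpl7, at 11.72 to 11.90 and 11.43 to 11.62, by -0.31 (adjusted p = 0.0688).

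Rpl19, Rpl4, Rpl13a and Rpl6 were likewise separated, with differences of -0.33, -0.26, -0.24 and -0.23 and adjusted p values from 0.105 to 0.171. Rpl10a would have joined them but for Sod2-/- replicate 39: it read 11.60 to 11.75 in Sod2+/+ and 11.23, 11.17 and 11.63 in Sod2-/- arrays (difference -0.36, adjusted p = 0.125). Rpl27a was read with a wide spread of 6.67 to 7.67 in Sod2+/+ arrays and differed by -0.40 (adjusted p = 0.381). Among the others, Rpl27 differed by -0.26, Rpl38 by -0.26, Rpl35 by -0.20, Rpl7a by -0.17, Rpl41 by -0.16 and Rpl39 by -0.10. Of the stalk, the flexible arm that recruits translation factors, Rplp0 was separated at 12.20 to 12.33 against 12.10 to 12.16 (difference -0.14, adjusted p = 0.269) and Rplp2 overlapped (difference -0.20, adjusted p = 0.373).

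Rpl37a ran the other way. This zinc-binding protein of the large subunit was read at 11.90, 11.78, 11.67 and 11.68 in Sod2+/+ and 11.87, 11.84 and 12.21 in Sod2-/- arrays. Replicate 39 was the highest of the 7, and the other Sod2-/- arrays lay inside the Sod2+/+ range. The difference of 0.21 (95% confidence interval -0.03 to 0.45) did not pass (adjusted p = 0.315), but its other probe sets, with means of 11.67 and 5.40, differed in the same direction, by 0.28 and 0.29 (adjusted p = 0.169 and 0.0913). Of the 33 genes with a mean log2 value of at least 10, Rpl37a was the only 1 above 0, and it was chosen for description by its place at the upper end. The other genes above 0, Rps16, Rpl12 and Rps4l, were all read below 5.

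The genes of Diamond-Blackfan anemia that had a probe set of their own numbered 11 of 19, and all 11 were below 0 with none past the test (median -0.22, 7 at an unadjusted p under 0.05). Rpl11 (-0.47) and Rps19, the gene most often mutated in the disease, had the largest differences. Rps19 read 10.78, 10.95, 10.61 and 10.67 in Sod2+/+ and 10.32, 10.20 and 10.74 in Sod2-/- arrays, with a difference of -0.33 ± 0.14 (SE; adjusted p = 0.220). Replicate 39 lay within the Sod2+/+ range, and without it the adjusted p was 0.0738. At the other end were Rps24, with -0.11, Rps27, with -0.09, and Rps28, with -0.08. Rps14, the gene of the 5q- syndrome, read 12.33, 12.35, 12.13 and 12.24 against 12.06, 11.95 and 12.26. Its difference of -0.17 (95% confidence interval -0.38 to 0.04, adjusted p = 0.357) was that of a typical member of the group. Fau, whose product carries the small subunit protein S30 fused to a ubiquitin-like part, is named outside the rule and differed by -0.29 (adjusted p = 0.149).

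The genes that are no part of the standard ribosome were mostly dim. Rpl39l, Rpl3l, a form of heart and skeletal muscle, and Rps4l were read at 3.79 to 3.95 on average, under the median of all probe sets (4.48), and differed by -0.02, -0.0028 and 0.03. Rps19bp1 was separated, at 6.28 to 6.41 in Sod2+/+ and 6.09 to 6.20 in Sod2-/- arrays (difference -0.22, adjusted p = 0.106). Rpl7l1 differed by -0.31 (adjusted p = 0.279). Of the standard proteins, Rpl12 (4.11 on average, difference 0.07) and Rpl14 (4.55, difference -0.37) were also read near background, so their values say little about those transcripts.

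The size of the difference varied with the brightness of the probe set. The 33 genes with a mean of at least 10 had a median of -0.24 with 32 below 0, the 10 genes from 5 to 10 a median of -0.41 with 10 below 0, and the 7 genes below 5 a median of -0.0028 with 4 below 0. Among all 439 genes with a mean of at least 10, 60.8% were below 0 and 6.38% were called lower, beside 2 of the 33. The 406 bright genes outside the group had a median of -0.09. In the band of 11 to 12 the 18 ribosomal protein genes had a median of -0.27 and the 101 others -0.05, and above 12 the medians were -0.17 for 13 and 0.03 for 39. Between 8 and 10 all genes tended lower, with -0.47 for the 3 members and -0.29 for the 1432 others. From 6 to 8 the medians were -0.31 for 4 members and -0.21 for 3626 others. From 4 to 6 they were -0.09 for 7 members and 0.05 for 9597 others.

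**Figure D4:**
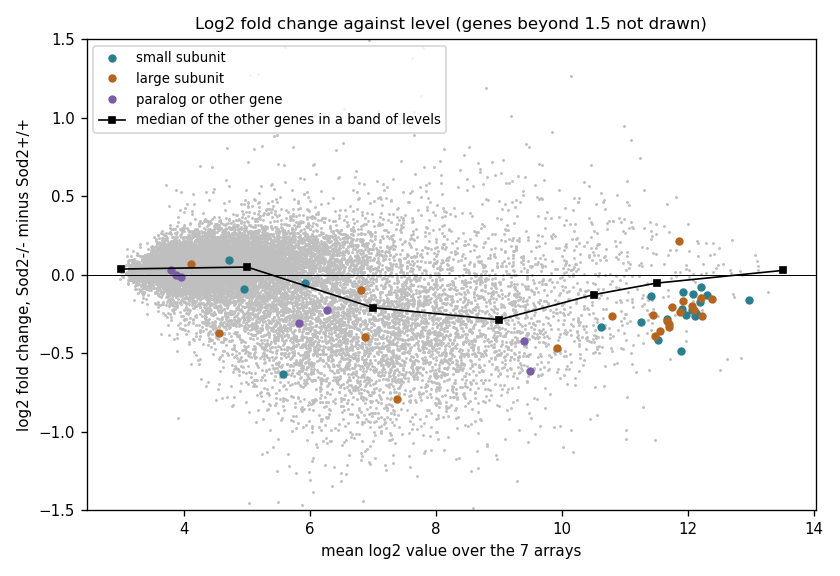
Log2 fold change (Sod2-/- minus Sod2+/+) against the mean log2 value over the 7 arrays for all genes (grey) and the 50 ribosomal protein genes (coloured by subunit), with the median of the other genes in bands of level (black squares, drawn at the middle of each band). Of the coloured points right of a level of 10, 32 of 33 lie below 0, where the other genes have a median of -0.09.

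A gene's own probe sets could be compared for 18 genes with at least 2 of a mean of 8 or more. Within each gene these probe sets all had the same sign. In 14 of the 18 the dimmest probe set had the lower difference, with medians of -0.32 over the dimmest and -0.23 over the brightest. For Rpl13a the brightest probe set, at 11.87, differed by -0.24 and the dimmest, at 8.48, by -0.81. Corresponding pairs were -0.26 and -0.74 for Rpl27, -0.30 and -0.56 for Rps9, and -0.13 and -0.42 for Rps15. Whether signal near the upper end of the scale compresses differences was not tested. The 15 genes read from probe sets with an _s_at or _x_at suffix had a median of -0.26 and the 35 others -0.23. The 110 probe sets that match several genes including a ribosomal protein, and that entered no count above, had a median of -0.25, with 99 below 0 and 6 called lower, and all 73 of those with a mean of at least 10 were below 0 (median -0.30).

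The deposited values were not equal in distribution between arrays: the 95th percentile of all probe sets lay between 8.42 and 8.71 for the Sod2+/+ and between 8.20 and 8.42 for the Sod2-/- arrays. When the arrays were brought to one distribution by quantile normalization the median of the 50 genes was -0.11, with 42 below 0. Rps27l, Rps18 and Rpl22 again fell (by 0.43, 0.38 and 0.28, adjusted p = 0.0289, 0.0295 and 0.0425) and none rose, beside 2.78% of all genes lower and 1.43% higher. Of the 33 bright genes 29 stayed below 0, with a median of -0.11, against 49.7% of all bright genes. Of those below 0 before, Rpl39 went to 0.10, Rps25 and Rps28 to 0.03, Rps24 to 0.02 and Rps15 to 0.0003. Rps4l went from 0.03 to -0.0028, and Rpl37a from 0.21 to 0.35 (adjusted p = 0.0598).

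Other genes of the ribosome's life were counted in the same fit. Of 76 mitochondrial ribosomal protein genes, which encode the separate ribosome of the organelle, 31 fell and none rose, with a median of -0.47. The largest were Mrpl27, which fell by 0.88 (adjusted p = 0.0150), and Mrpl23, which fell by 0.88 (adjusted p = 0.0233). Averaged over the 76 genes, the deviations from the Sod2+/+ mean were -0.40, -0.53 and -0.38 in Sod2-/- replicates 31, 35 and 39. After quantile normalization 21 of these genes fell (median -0.30). Of 17 translation factor and related genes whose messages also carry the TOP motif, 6 fell and none rose (median -0.41), and after quantile normalization 4 fell (median -0.19). Npm1, a nucleolar chaperone of ribosome assembly, fell by 0.69 (adjusted p = 0.0240), and Eif3f, a subunit of initiation factor 3, by 0.66 (adjusted p = 0.0259). The others that fell were Eif3e, Naca, Btf3 and Eif3l.

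Of 47 ribosome assembly factors 5 fell and none rose (median -0.19), namely Npm1, Ncl, Eif6, Pes1 and Fbl, and after quantile normalization 4 fell (median -0.14). Fbl, the methyltransferase of ribosomal RNA, fell by 0.83 (adjusted p = 0.0221). None of the 14 chaperones and importins of ribosomal proteins passed, though 13 were below 0 (median -0.28, or -0.09 after quantile normalization), and the largest difference was that of Ltv1, -0.46 (adjusted p = 0.156). Of 14 genes of mTOR and LARP1 control 1 passed: Tsc2, an inhibitor of mTOR signalling, fell by 0.99 (adjusted p = 0.0209). The list median was -0.22, or -0.05 after quantile normalization. Tsc2 lies on chromosome 17, as Sod2 does, so the limit given for Rps18 holds for it too. Of 15 rescue and recycling genes, Gtpbp2, a factor for stalled ribosomes, rose by 0.86 (adjusted p = 0.00848) and Denr, which helps recycle the small subunit, fell by 0.81 (adjusted p = 0.0441), with a median of -0.29. After quantile normalization the call of Denr was lost (adjusted p = 0.0619) and Rnf10 was called higher (by 0.41, adjusted p = 0.0386), with a median of -0.20. Of the 6 measured genes of the 5S particle and p53 none passed (median -0.17), and Rpl11 had the largest difference, while after quantile normalization the median was -0.02 and Mdm2 was called higher (by 0.39, adjusted p = 0.0455). No difference between these lists and the ribosomal proteins was tested.

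**Figure D5:**
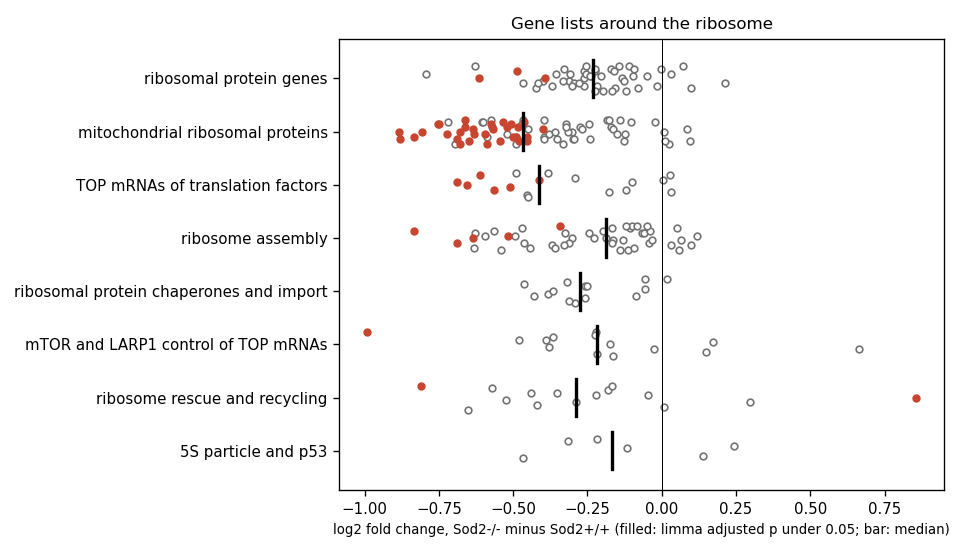
Log2 fold change (Sod2-/- minus Sod2+/+) of each measured gene of 8 lists around the ribosome, filled where the limma adjusted p is under 0.05, with the median of each list as a black bar; the vertical scatter within a list carries no value. The median is -0.23 for ribosomal proteins, with 3 filled, and -0.47 for mitochondrial ribosomal proteins, with 31 filled.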

How the data were processed

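The authors deposited log2 values made by robust multi-array averaging (RMA) of Affymetrix mouse arrays; the submitters' processing notes also name GCOS 1.3.037. The methods count 1 more Sod2-/- array, which was not used here. The log2 values were used as deposited. After 64 control probe sets were left out, 45037 entered a linear model of genotype alone (lmFit, eBayes; limma 3.58.1, R 4.3.3; Benjamini-Hochberg adjustment over all of them, threshold 0.05). A gene was read from its brightest probe set matched to it alone by platform annotation. The number of arrays limits the precision. Chip lot and fluidics station came from the settings file of each array.

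The genes, the lists and the rule for the genes named were chosen with earlier results of these data known. The rule took members past the threshold, the 5 largest differences in each direction, the 5 brightest and 5 dimmest, disease genes, stalk proteins and paralogs, and from each other list the largest differences; further members are given by range. Sequences and starts are from RefSeq (GRCm38.p6). Alternatives were t-tests, eBayes with trend, quantile normalization, centring, an offset of 32, bright probe sets only, station and chip lot as blocks or alone, other choices of probe set, and each array left out. The steps were tested on simulated data. Figures used matplotlib 3.10.9 in Python 3.11.15.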

Additional observations from a re-analysis of the deposited data

Results flagged for a closer look

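In 3 of the 50 genes 1 Sod2+/+ array stood apart from the other 3 by Dixon's test at the 95% level. Rpl10a in replicate 33 was low, at 11.60, and so was Rpl22l1 in replicate 33, at 9.35, while Rpl8 in replicate 29 was high, at 11.89. Chance flags about 1 group in 20, and 50 were tested. The 3 Sod2-/- arrays are too few for this test.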

How the results depend on the processing

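No paired analysis was possible because the genotypes share no replicate numbers and the labels, which say that pairs were sorted in parallel, do not say which arrays they gave. By limma 3 genes fell, and 0 did by the methods' t-test with equal or unequal variances and on station 2 alone. With an offset of 32 the count was 1 (Rps27l), among bright probe sets 5, and with all probe sets of each gene averaged 7. Rps18 was not among these 7 (limma adjusted p = 0.0888). Rpl22 lost its call with station as a block (limma adjusted p = 0.0594) and by eBayes with trend (adjusted p = 0.0569). The chip lot of the Sod2+/+ arrays, as a block or alone, sets only Sod2-/- replicate 35 against them. Station 1 also holds a lone Sod2-/- array, and counts from these settings are left out. With chip lot as a block Rps27l, Rps18 and Rpl22 differed by -0.61, -0.55 and -0.49. With 1 array left out the count ran from 0 (without Sod2+/+ replicate 37 or Sod2-/- replicate 35) to 5 (without Sod2-/- replicate 39), and was 1 without Sod2+/+ replicate 29 or Sod2-/- replicate 31. None rose under any of these. The median of the 50 genes stayed below 0 in each, from -0.33 with chip lot as a block to -0.11 after quantile normalization. After that normalization small subunit genes had -0.11. The other lists around the ribosome had a median of -0.12, with 8 genes lower in place of 12 and 3 higher in place of 1. Mitochondrial ribosomal proteins and cell markers are not in these counts, which were added after the data were seen. A lone Sod2-/- array, in that lot and on station 1, is assumed to vary like the others. Signs turned for genes close to 0: after quantile normalization for Rpl39 (0.10), Rps25 (0.035), Rps28 (0.034), Rps24 (0.023), Rps15 (0.0003) and Rps4l (-0.0028), for Rps4l on centring (-0.0080) and on station 1 (-0.0064), and for Rpl3l with chip lot as a block or that lot alone (0.21) and on station 2 (0.080). With 1 array left out, Rpl39l ran from -0.077 to 0.054, Rpl3l from -0.11 to 0.062, Rps16 from -0.066 to 0.20 and Rps4l from -0.0032 to 0.10. In all, 630 of the values of genes named by the rule kept direction and side of the threshold, 35 lost it, 10 gained it and 18 changed sign. The cause of these changes was not tested. Signal near background limits the 7 dimmest genes.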
